A study of Mus musculus with 7 samples.

Results

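The genes of prostaglandin and thromboxane synthesis, breakdown and reception were followed in ribosome-bound RNA of mouse midbrain. They were the rows with the symbols Ptgs1, Ptgs2, Ptgds, Hpgds, Ptges, Ptgis, Tbxas1, Hpgd, Ptger3 and Ptgfr, 10 of the 32531 gene rows in each file. All 10 were among the 17654 genes that passed the filter on low counts. The groups were immunopurified RNA (IP, 3 libraries, replicates 1, 2 and 4) and RNA that stayed off the beads (unbound, 4 libraries, replicates 1 to 4). Both came from adult, untreated midbrain of the mouse line Stard8-TRAP ES2342, which carries EGFP fused to the ribosomal protein Rpl10a under regulatory sequence of Stard8, so the unbound libraries share the transgene. Translating ribosome affinity purification (TRAP) captures tagged ribosomes with their RNA on beads that carry antibodies to EGFP. A replicate 3 of the IP group was not analysed here. The labels give neither the number of animals behind a library nor whether replicates were separate animals, so p-values measure the spread between these libraries only.

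Prostanoids are short-lived lipid signals made from arachidonic acid, which phospholipases and, in brain, monoacylglycerol lipase release from lipids. The cyclooxygenases Ptgs1 and Ptgs2 turn it into prostaglandin H2, and terminal synthases convert that into prostaglandin D2 (Ptgds, Hpgds), prostaglandin E2 (Ptges), prostacyclin (Ptgis) or thromboxane A2 (Tbxas1). The dehydrogenase Hpgd inactivates prostaglandins, and each prostanoid acts through receptors coupled to G proteins. In the brain the pathway is known for its part in blood flow, fever and sleep, with enzymes in vessel cells, microglia, meninges and oligodendrocytes.

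The 2 cyclooxygenase genes and the 2 prostaglandin D2 synthase genes encode enzymes of the same step from separate loci, and their sequence before the gene start is shown because the levels of each pair are set against each other further on. The stretches are the 250 bases before the start in RefSeq (build GRCm38.p6), 5′ to 3′ in the direction of the gene. The annotation GENCODE M21 sets some gene ends further out, for Hpgds at position 65144908 and for Ptgds at 25470046. Most of the Hpgds stretch, its motif match included, and all of the Ptgds stretch lie inside those gene spans. Capitals mark motif matches.
Ptgs1 (chr2:36230176-36230425, plus strand): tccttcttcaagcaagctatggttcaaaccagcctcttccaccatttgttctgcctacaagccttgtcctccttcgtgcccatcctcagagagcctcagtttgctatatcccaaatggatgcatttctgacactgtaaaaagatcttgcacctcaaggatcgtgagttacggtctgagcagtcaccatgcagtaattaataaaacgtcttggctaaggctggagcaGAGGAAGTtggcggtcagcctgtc
Ptgs2 (chr1:150099781-150100030, plus strand): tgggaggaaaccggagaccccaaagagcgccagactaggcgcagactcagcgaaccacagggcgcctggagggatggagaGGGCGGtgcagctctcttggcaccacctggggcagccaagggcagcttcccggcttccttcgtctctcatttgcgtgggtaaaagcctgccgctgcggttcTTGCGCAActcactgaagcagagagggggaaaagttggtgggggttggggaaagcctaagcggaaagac
Hpgds (chr6:65144731-65144980, minus strand): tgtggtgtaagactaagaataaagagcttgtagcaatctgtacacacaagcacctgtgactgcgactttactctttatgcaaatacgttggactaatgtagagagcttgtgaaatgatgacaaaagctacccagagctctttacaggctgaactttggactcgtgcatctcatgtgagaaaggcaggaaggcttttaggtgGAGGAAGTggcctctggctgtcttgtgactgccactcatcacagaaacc
Ptgds (chr2:25469750-25469999, minus strand): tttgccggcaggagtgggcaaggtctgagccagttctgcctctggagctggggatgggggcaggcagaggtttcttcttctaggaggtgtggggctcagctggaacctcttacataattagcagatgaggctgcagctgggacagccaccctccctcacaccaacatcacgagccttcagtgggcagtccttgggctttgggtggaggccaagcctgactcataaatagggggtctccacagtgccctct
Motifs were searched on both strands in 9 of the 10 genes, those with an entry, and in all 32851 stretches of the same length. GAGGAAGT, a form of the site of the myeloid factor PU.1 and other ETS factors, stood in Ptgs1 and Hpgds, with its first base 24 and 49 bases before the start, and in 2.44% of all stretches. TTGCGCAA, the palindrome that C/EBP factors bind, stood in Ptgs2, 69 bases before the start, and in 0.164% of all stretches. GGGCGG, the GC box, was in Ptgs2, Hpgd, Ptges, Ptger3 and Ptgfr and in 32.7% of all stretches. TATAAA was in Tbxas1 alone among the 9 genes, in 2 overlapping copies on opposite strands, and in 12.4% of all stretches. CACGTG and TGACGT were in none of the stretches of the 9 genes, against 6.02% and 6.47% of all stretches. Sequence past the start or further before it was not searched, so the genes may hold these motifs there. The stretch of Ptgds held none of the 6 motifs. The stretches of Ptges and Tbxas1 also lie wholly inside the gene span of GENCODE M21, and that of Ptgfr in part. A match describes letters, not bound sites.

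Gene counts summed to 52052340 in the smallest library and 76114634 in the largest, and 3 counts stood for 0.0376 to 0.059 CPM, the depth-scaled count unit used throughout, with library sizes adjusted by TMM. Stard8, whose regulatory sequence drives the tag, measured 352 ± 111 CPM in IP and 4.23 ± 0.569 CPM in unbound (SD, n = 3 and 4), and Rpl10a, the tagged protein, measured 328 ± 40.4 CPM in IP and 164 ± 119 CPM in unbound and did not pass. The series is described as a profile of neurons. All 10 neuronal markers were lower in IP, where their summed level was between 3415 and 7637 CPM, against 13821 to 20739 CPM in unbound. All 10 endothelial, 10 pericyte and smooth muscle, 10 microglia and 8 perivascular macrophage markers were higher in IP. So were 6 of 8 astrocyte and 4 of 6 ependymal markers, the latter without Foxj1 and Tmem212. Tm4sf1 alone made up 95.7 CPM of the mean ependymal sum of 163 CPM in IP. The highest neuronal sum within IP was that of IP 4 (7637 CPM, against 3415 in IP 1 and 3753 in IP 2). Stard8 was lowest in that library among the IP libraries (227 CPM, against 388 in IP 1 and 440 in IP 2). The labels place IP libraries in sequencing lanes 2 and 5 and unbound libraries in lanes 1 and 3, so lane and group cannot be told apart. IP and unbound are fractions split by capture on beads. A lower level in IP therefore tells neither how many cells of a type there were nor how much RNA each held.

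Of the 10 prostanoid genes, 8 rose in IP and 0 fell, against 20.5% of all tested genes that rose and 18.9% that fell (edgeR quasi-likelihood test, Benjamini-Hochberg adjusted p under 0.05). For 8 of 10 every IP library stood above every unbound library, as it did for 25.1% of tested genes, and for 0 of 10 every IP library stood below, as it did for 22.7%. The median log2 fold change of the 10 was 2.39, against -0.10 over all tested genes. The higher genes were both cyclooxygenases, Hpgds, Ptges, Ptgis, Tbxas1, Hpgd and Ptgfr. Ptgds and Ptger3 did not pass. At an unadjusted p under 0.05 no gene of the 10 was lower either, and DESeq2 and limma voom also called 8 higher and 0 lower. Within index sequence ACAGTG (2 IP and 2 unbound libraries) 4 of the 10 passed as higher, namely Ptgs1, Hpgds, Tbxas1 and Hpgd. Within index sequence GTGAAA (1 IP and 2 unbound libraries) 7 passed, on the assumption that a single IP library varies as unbound libraries do.

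**Figure D1:**
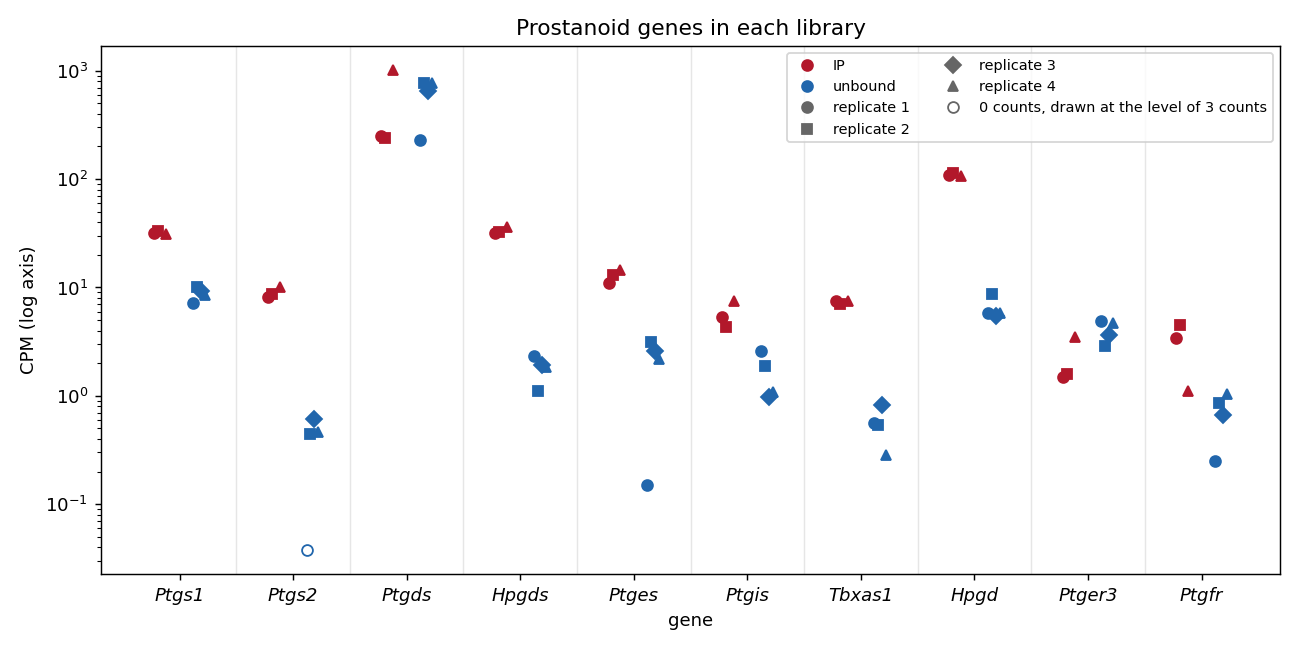
Level of each prostanoid gene in each library, in CPM on a log axis, with IP libraries in red and unbound libraries in blue. The groups are apart for 8 genes and overlap for Ptgds and Ptger3, and the open point is Ptgs2 in unbound 1, with 0 counts, drawn at the level of 3 counts.

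The constitutive cyclooxygenase gene Ptgs1 (chr2:36230426-36252272, GRCm38, plus strand) measured 31.7, 33.1 and 31.2 CPM in IP 1, 2 and 4, against 7.23, 10.1, 9.24 and 8.61 CPM in unbound 1 to 4. The IP libraries lay within a narrow band and above every unbound library. Its log2 fold change was 1.87 ± 0.23 (SE, adjusted p = 0.000131), and under 18 alternatives it stayed between 1.78 and 1.98 and past the threshold. The inducible cyclooxygenase gene Ptgs2 (chr1:150100031-150108227, plus strand) was less abundant in counts, with 609, 497 and 519 counts in IP 1, 2 and 4 and 0, 26, 32 and 26 counts in unbound 1 to 4. These were 8.12, 8.66 and 10.2 CPM in IP and 0, 0.447, 0.607 and 0.459 CPM in unbound, where 0 counts in unbound 1 allow up to 0.0376 CPM. Its log2 fold change was 4.58 ± 0.89 (adjusted p = 0.00236), at rank 608 of 17654 tested genes and above the other 9 genes. That order rests on unbound 1: without it Ptgs2 had 4.15, with the call unchanged, and Hpgds, at 4.37, stood first. Within index GTGAAA the log2 fold change of Ptgs2 was 4.27, and within index ACAGTG it missed the threshold (5.27, adjusted p = 0.0614).

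The 2 prostaglandin D2 synthases differed. Hpgds, the glutathione-dependent synthase of blood-derived cells and microglia (chr6:65117293-65144908, minus strand), had 32.1, 32.4 and 36.5 CPM in IP 1, 2 and 4, against 2.31, 1.1, 1.94 and 1.84 CPM in unbound 1 to 4. Each IP library held at least 1858 counts of it and each unbound library at most 184. The log2 fold change was 4.23 ± 0.31 (adjusted p = 4.04e-06), between 4.05 and 4.37 under 18 alternatives, all past the threshold.

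Ptgds, the lipocalin-type synthase known from oligodendrocytes, leptomeninges and choroid plexus (chr2:25466709-25470046, minus strand), had 250, 237 and 1017 CPM in IP 1, 2 and 4, against 231, 766, 645 and 767 CPM in unbound 1 to 4. The highest value was in IP 4 and the lowest in unbound 1, and the groups overlapped. The log2 fold change was -0.27 ± 0.55 (adjusted p = 0.734) with a 95% interval of -1.49 to 0.96. Between libraries of the same number, the ratio of IP to unbound was 1.08 for number 1, 0.309 for number 2 and 1.33 for number 4. Without IP 4 the log2 fold change was -1.30 (adjusted p = 0.0499), and within index GTGAAA, which holds IP 4, it was 0.55 (adjusted p = 0.0867). Within index ACAGTG it was -1.04 (adjusted p = 0.241).

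Markers of cells known for Ptgds moved in different ways across these libraries. The 10 oligodendrocyte markers summed to 1228, 1404 and 1902 CPM in IP 1, 2 and 4, against 5577, 6640, 7705 and 5872 CPM in unbound 1 to 4, and 9 of 10 fell in IP. The 12 fibroblast and meningeal markers summed to 120, 131 and 176 CPM in IP and to 42.3, 30.8, 45.5 and 68.2 CPM in unbound, with 8 of 12 higher in IP and 0 lower. The 8 choroid plexus markers summed to 113, 45.9 and 275 CPM in IP and to 38.1, 39.3, 52.4 and 39 CPM in unbound. Of the 6 tested, 1 was higher in IP, Ttr, whose groups overlapped, and 0 were lower. All 3 sums were highest in IP 4 among the IP libraries, as Ptgds was. Of the choroid plexus sum in IP 4, 237 CPM came from Ttr, while Folr1 and Kcne2 were at or under 0.645 CPM in every library. Unbound 1, with the lowest Ptgds, narrowly had the lowest unbound oligodendrocyte sum (5577 CPM, next to 5872 CPM in unbound 4). Its choroid plexus sum was also narrowly the lowest (38.1 CPM, next to 39 CPM in unbound 4). Ptgds itself was further apart, at 231 CPM in unbound 1 against 645 to 767 CPM in unbound 2 to 4. The fibroblast and meningeal sum was lowest in unbound 2 (30.8 CPM, against 42.3 CPM in unbound 1). Within their groups, the neuronal sum was also lowest in unbound 1 (13821 CPM) and highest in IP 4 (7637 CPM). The part of these cells in the Ptgds values was not tested.

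**Figure D2:**
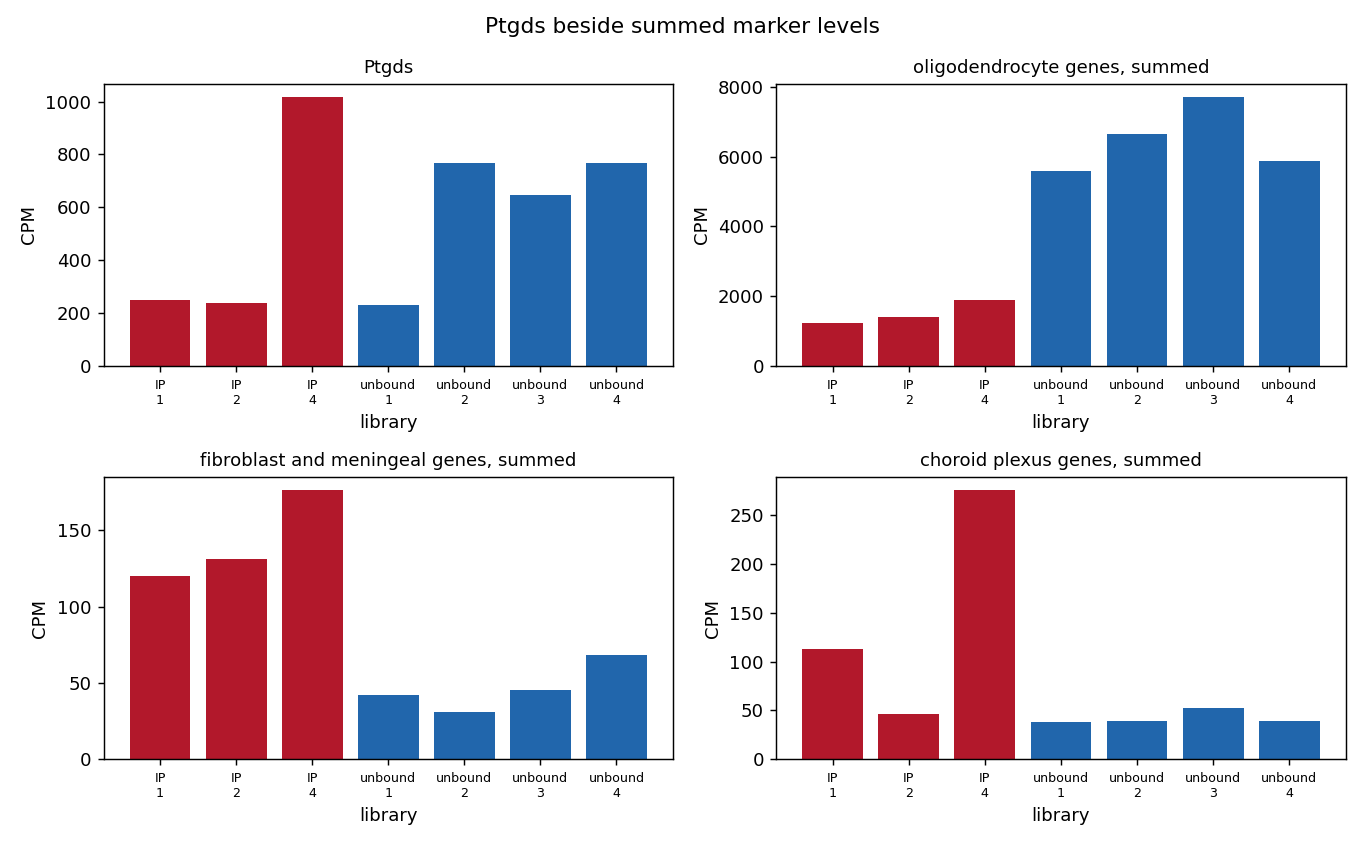
CPM of Ptgds and summed CPM of 10 oligodendrocyte, 12 fibroblast and meningeal and 8 choroid plexus markers in each library, with IP bars in red and unbound bars in blue. Ptgds peaks in IP 4 at 1017 CPM, where the choroid plexus sum is 275 CPM, with 237 CPM of it from Ttr. The oligodendrocyte sum is lower in all IP libraries.

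The remaining terminal synthases were higher in IP. Ptges, the inducible membrane-bound prostaglandin E synthase (chr2:30889471-30929863, minus strand), had 11, 13.1 and 14.5 CPM in IP 1, 2 and 4, against 0.15, 3.16, 2.6 and 2.17 CPM in unbound 1 to 4. The low unbound 1 value rested on 12 counts, against 123 to 184 in the other unbound libraries. Its log2 fold change was 2.67 ± 0.70 (adjusted p = 0.0116), 2.28 without unbound 1, and it lost its call within index ACAGTG (2.87, adjusted p = 0.144).

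Ptgis, the prostacyclin synthase of vessel walls (chr2:167191805-167240604, minus strand), had 5.36, 4.32 and 7.47 CPM in IP, against 2.59, 1.87, 0.968 and 1.08 CPM in unbound. Its groups were apart but closer than those of the other synthases that rose, with a log2 fold change of 1.81 ± 0.47 (adjusted p = 0.012). Within index sequences it was 1.12 (adjusted p = 0.205) for ACAGTG and 2.88 (adjusted p = 6.3e-05) for GTGAAA. Endothelial markers summed to 1776, 1638 and 1360 CPM in IP 1, 2 and 4 and to 14.4 to 18.7 CPM in unbound. Within IP that sum was lowest in IP 4, where Ptgis was highest. The pericyte and smooth muscle sum was likewise lowest there (3142 CPM), and the fibroblast and meningeal sum highest (176 CPM). The part of these cells in the Ptgis values was not tested. Tbxas1, the thromboxane synthase of platelets and macrophages (chr6:38875404-39084585, plus strand), had 7.46, 7.08 and 7.51 CPM in IP, against 0.564, 0.533, 0.816 and 0.282 CPM in unbound. Its log2 fold change was 3.74 ± 0.46 (adjusted p = 0.000132), past the threshold under 18 of 18 alternatives.

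Among cells known for Hpgds and Tbxas1, markers of microglia and perivascular macrophages were higher in IP, while mast cell and platelet genes were mixed. Endothelial and pericyte markers were higher in IP as well. The microglia markers summed to 690, 702 and 717 CPM in IP, against 62.9, 69.1, 102 and 78.1 CPM in unbound, and the perivascular macrophage markers to 662, 723 and 697 CPM in IP, against 12, 4.26, 6.47 and 7.84 CPM in unbound. Of the mast cell and platelet list, 6 of 10 genes were tested, with 2 higher (Pf4 and Ppbp) and 1 lower (Kit). The platelet genes Itga2b, Gp9 and Gp1bb did not pass. The mast cell genes Cpa3, Tpsb2, Cma1 and Mcpt4 were at or near 0 in every library, and Pf4, the most abundant gene of that list in IP, also stands in the perivascular macrophage list. The part of these cells in the rise of Hpgds and Tbxas1 was not tested.

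Hpgd, the NAD-dependent enzyme that inactivates prostaglandins (chr8:56294585-56321043, plus strand), had 109, 114 and 107 CPM in IP 1, 2 and 4, against 5.86, 8.66, 5.48 and 5.77 CPM in unbound 1 to 4. It was the most abundant of the genes that rose and had the smallest p of the 10. The log2 fold change was 4.09 ± 0.25 (adjusted p = 1.41e-06), with a 95% interval of 3.55 to 4.63, and it stayed between 3.94 and 4.26 under the 18 alternatives.

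The 2 receptor genes among the 10 were scarce. Ptgfr, the receptor of prostaglandin F2 alpha (chr3:151796502-151837630, minus strand), had 3.45, 4.51 and 1.1 CPM in IP 1, 2 and 4, against 0.251, 0.859, 0.664 and 1.04 CPM in unbound 1 to 4. IP 4 lay just above unbound 4, and IP 1 and 2 well above it. The log2 fold change was 2.10 ± 0.68 (adjusted p = 0.03), the least stable of the 8 calls, lost under 7 of 17 alternatives. Without IP 1 it was 2.01 (adjusted p = 0.0942), without IP 2 it was 1.70 (adjusted p = 0.15), and without unbound 3 it was 2.07 (adjusted p = 0.0683). Within index sequences it was 2.85 (adjusted p = 0.0679) for ACAGTG and 0.38 (adjusted p = 0.726) for GTGAAA. The 10 pericyte and smooth muscle markers summed to 4290, 4510 and 3142 CPM in IP 1, 2 and 4, against 22.8, 24.1, 30.9 and 40.8 CPM in unbound 1 to 4. Within IP they were mixed: Rgs5, Pdgfrb, Kcnj8, Vtn and Higd1b were lowest in IP 4, while Abcc9 and the smooth muscle genes Acta2, Myh11, Tagln and Cnn1 were highest there. Their part in the Ptgfr values was not tested.

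Ptger3, a prostaglandin E2 receptor that couples to inhibitory G proteins and is known from neurons (chr3:157566892-157645888, plus strand), had 1.48, 1.59 and 3.46 CPM in IP 1, 2 and 4, against 4.9, 2.89, 3.63 and 4.73 CPM in unbound 1 to 4. IP 4 lay within the unbound range and the other IP libraries below it. The log2 fold change was -0.89 ± 0.47 (adjusted p = 0.157), with a 95% interval of -1.93 to 0.15. It was negative and missed the threshold under each of 17 alternatives, and without IP 4 it was -1.39 (adjusted p = 0.0557). Neuronal markers were likewise highest in IP 4 among the IP libraries, and their part in the Ptger3 values was not tested.

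Ratios of 2 genes within a library do not depend on scaling between libraries. The counts of Ptgds were 7.78, 7.3 and 27.9 times those of Hpgds in IP 1, 2 and 4, against 100, 697, 333 and 418 times in unbound 1 to 4. The mean log2 ratio was 3.54 ± 1.09 in IP and 8.29 ± 1.18 in unbound (SD, n = 3 and 4), a difference of -4.74 (2-sided exact permutation test over 35 splits, p = 0.0286, the smallest these splits can give, adjusted p = 0.0429 over 3 ratios). Without IP 4 the difference was -5.37. Counts of Ptger3 were 0.429, 0.351 and 3.14 times those of Ptgfr in IP, against 19.6, 3.36, 5.46 and 4.54 times in unbound. That difference was -3.01 on the log2 scale (exact permutation p = 0.0286, adjusted p = 0.0429), with IP 4 close to unbound 2. Without IP 4 it was -4.01, and without IP 2 it was -2.44. Ptgs1 counts were 3.9, 3.82 and 3.06 times those of Ptgs2 in IP and 22.5, 15.2 and 18.8 times in unbound 2 to 4, with no Ptgs2 count in unbound 1. The difference of the mean log2 ratios was -3.85 with 0.5 counts added (exact permutation p = 0.0571, adjusted p = 0.0571), and -2.88 with 5 counts added (exact permutation, adjusted p = 0.0286). Without unbound 1 it was -2.36. The groups did not overlap in any of the 3 ratios. With 1 library left out the smallest p that the splits can give is 0.0667 or 0.1, so no such ratio could pass.

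**Figure D3:**
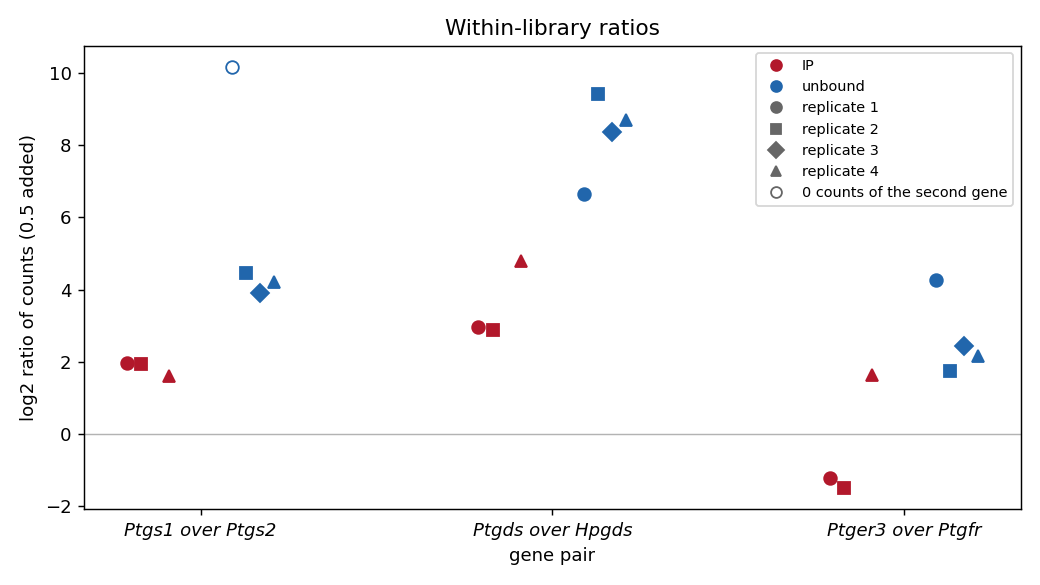
Log2 ratio of the counts of 2 genes within each library, with 0.5 added to each count, for 3 gene pairs, with IP in red and unbound in blue. Every IP ratio lies below every unbound ratio of the same pair, and the open point marks unbound 1, where Ptgs2 had 0 counts.

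Per length, the order of levels differed between the groups. Length was the union of all exons in GENCODE M21, from 1.65 kb for Ptgds to 9.09 kb for Tbxas1. This union can be longer than the transcripts present, and the order within a group depends on it. In CPM per kilobase of exon, IP ran from Ptgds (304) through Hpgd (65.2), Ptgs1 (8.24), Hpgds (5.24), Ptges (3.27), Ptgis (2.23), Ptgs2 (1.96) and Tbxas1 (0.808) to Ptgfr (0.446) and Ptger3 (0.382). The ranges of neighbours in this order overlapped for Ptges with Ptgis, Ptgis with Ptgs2, and Ptgfr with Ptger3. In unbound the order was Ptgds (365), Hpgd (3.83), Ptgs1 (2.26), Ptger3 (0.709), Ptgis (0.634), Ptges (0.514), Hpgds (0.279), Ptgfr (0.104), Ptgs2 (0.0826) and Tbxas1 (0.0603). The ranges overlapped from Ptger3 through Hpgds and from Ptgfr through Tbxas1. Ptgds took 54.4%, 52% and 82.3% of the counts of the 10 genes in IP 1, 2 and 4, against 90.6% to 96.7% in unbound. The other 9 genes summed to 216 ± 5.32 CPM in IP and 26.3 ± 2.37 CPM in unbound (SD, n = 3 and 4).

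In GENCODE M21 exons of 4 of the 10 genes share bases with a gene on the other strand, by 1.58% (Tbxas1), 3.81% (Ptgs1), 4.85% (Ptgfr) and 6.08% (Ptgis) of their exon length. The strand setting of the counting is not given in the sources used here, so reads there could belong to either gene or be left out. Reads that matched more than 1 gene made up 1.55% ± 0.107 of all reads in IP and 9.95% ± 1.89 in unbound (SD, n = 3 and 4).

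Of 38 further pathway genes with a row, 31 were tested, and 9 rose and 3 fell in IP, where 20.5% of all tested genes rose and 18.9% fell. Their median log2 fold change was 0.29, against -0.10 over all tested genes. Counts are given by step, and differences between steps were not tested. DESeq2 and limma voom each called 12 higher and 4 lower, and within index ACAGTG 5 were higher and 1 lower. Among genes of arachidonate release, 3 of 9 tested rose and 0 fell. The secreted phospholipase gene Pla2g2d, known from myeloid cells, measured 25.9 ± 1.21 CPM in IP and 0.181 ± 0.162 CPM in unbound (log2 fold change 7.19 ± 0.78, adjusted p = 5.48e-05), with 0, 16, 5 and 20 counts in unbound 1 to 4. The cytosolic phospholipase gene Pla2g4a, which feeds the cyclooxygenases, measured 10.1 ± 1.27 and 2.28 ± 1.43 CPM in IP and unbound (2.14 ± 0.59, adjusted p = 0.0147). Mgll, the monoacylglycerol lipase gene, measured 108 ± 6.66 CPM in IP and 61.2 ± 10.4 CPM in unbound (0.82 ± 0.21, adjusted p = 0.011, and 0.0534 without IP 2). Pla2g15, Pla2g6 and Pla2g4e did not pass, with log2 fold changes of 0.96 ± 0.36, -0.32 ± 0.25 and -1.37 ± 0.57. Pla2g4e passed as lower without IP 4 (-2.16, adjusted p = 0.0162), without unbound 2 (-1.60, adjusted p = 0.0384), by DESeq2 (adjusted p = 0.0306) and by limma voom (adjusted p = 0.0413). Pla2g15 passed as higher under 6 of 18 alternatives, among them DESeq2 (adjusted p = 0.0283), limma voom (adjusted p = 0.0265) and the fits without unbound 2 (adjusted p = 0.0458) or unbound 3 (adjusted p = 0.0457).

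Among other terminal synthesis genes 1 of 6 tested rose and 3 fell. Ptges2, a membrane-associated prostaglandin E synthase, measured 7.15 ± 2.76 CPM in IP and 21.5 ± 8.97 CPM in unbound, and so went the other way from Ptges (log2 fold change -1.59 ± 0.41, adjusted p = 0.0106). Fam213b, a prostamide and prostaglandin F synthase, measured 25.5 ± 6.62 CPM in IP and 72.8 ± 35.5 CPM in unbound (-1.51 ± 0.36, adjusted p = 0.00713). The carbonyl reductase Cbr1 measured 31.1 ± 1.55 CPM in IP and 65.3 ± 31.9 CPM in unbound (-1.07 ± 0.33, adjusted p = 0.0249). Its relative Cbr3 measured 5.55 ± 0.958 CPM in IP and 1.66 ± 1.15 CPM in unbound and rose (1.74 ± 0.54, adjusted p = 0.0253). Cbr1 lost its call without any single IP library (adjusted p = 0.0721 to 0.0801), and Cbr3 without any single IP library or without unbound 3 or unbound 4 (adjusted p = 0.0544 to 0.0745). The cytosolic synthase Ptges3, also a cochaperone, measured 138 ± 28.6 CPM in IP and 171 ± 60.6 CPM in unbound (-0.31 ± 0.29), and the aldose reductase Akr1b3 had a log2 fold change of 0.29 ± 0.28, and neither passed.

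Of 8 other genes on the receptor list, with the Ptgfr inhibitor Ptgfrn among them, 3 rose and 0 fell. Tbxa2r, the thromboxane receptor, had 17.5, 17.4 and 20.1 CPM in IP 1, 2 and 4, against 0.0251, 0, 0.228 and 0.282 CPM in unbound 1 to 4, a log2 fold change of 7.14 ± 0.83 (adjusted p = 8.8e-05). The unbound levels rested on 2, 0, 12 and 16 counts, and the log2 fold change was 7.84 without unbound 4 and 10.09 within index ACAGTG. Ptger1, the prostaglandin E2 receptor that raises calcium, measured 13 ± 1.84 CPM in IP and 2.25 ± 0.985 CPM in unbound (2.53 ± 0.43, adjusted p = 0.00112). Ptgdr2, the second receptor of prostaglandin D2, had 115 counts over the IP libraries and 1 over the unbound ones. Scaled to library size that was 155 times more in IP, and counting error alone allows 27.3 to 6185 times (exact 95% interval; edgeR adjusted p = 0.00308). Its levels of 0.236 to 0.787 CPM in IP were low. Ptgfrn, which inhibits Ptgfr, had a log2 fold change of 0.28 ± 0.32 and did not pass, and its direction turned within index ACAGTG (-0.05), while within index GTGAAA it passed as higher (0.78, adjusted p = 0.0197). The log2 fold changes of Ptger2, Ptger4, Ptgdr and Ptgir lay between -1.05 and 2.25 and missed the threshold.

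Among 8 tested genes of transport and breakdown, 2 rose and 0 fell. The exporter Abcc4 measured 54.3 ± 20.4 CPM in IP and 2.26 ± 0.767 CPM in unbound (log2 fold change 4.59 ± 0.37, adjusted p = 7.21e-06). Zadh2, a prostaglandin reductase, measured 39.9 ± 6.03 CPM in IP and 18.8 ± 3.4 CPM in unbound (1.09 ± 0.24, adjusted p = 0.00442). Ptgr2, another reductase, had 0.56 ± 0.22 (adjusted p = 0.058) and passed under 4 of 18 alternatives, namely without IP 4 (adjusted p = 0.0359), without unbound 2 (0.0305), by library size only (0.0413) and by DESeq2 (0.0417). The uptake carrier Slco2a1 had 5.08 ± 1.91 CPM in IP and 2.9 ± 1.99 CPM in unbound and did not pass (adjusted p = 0.31).

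**Figure D4:**
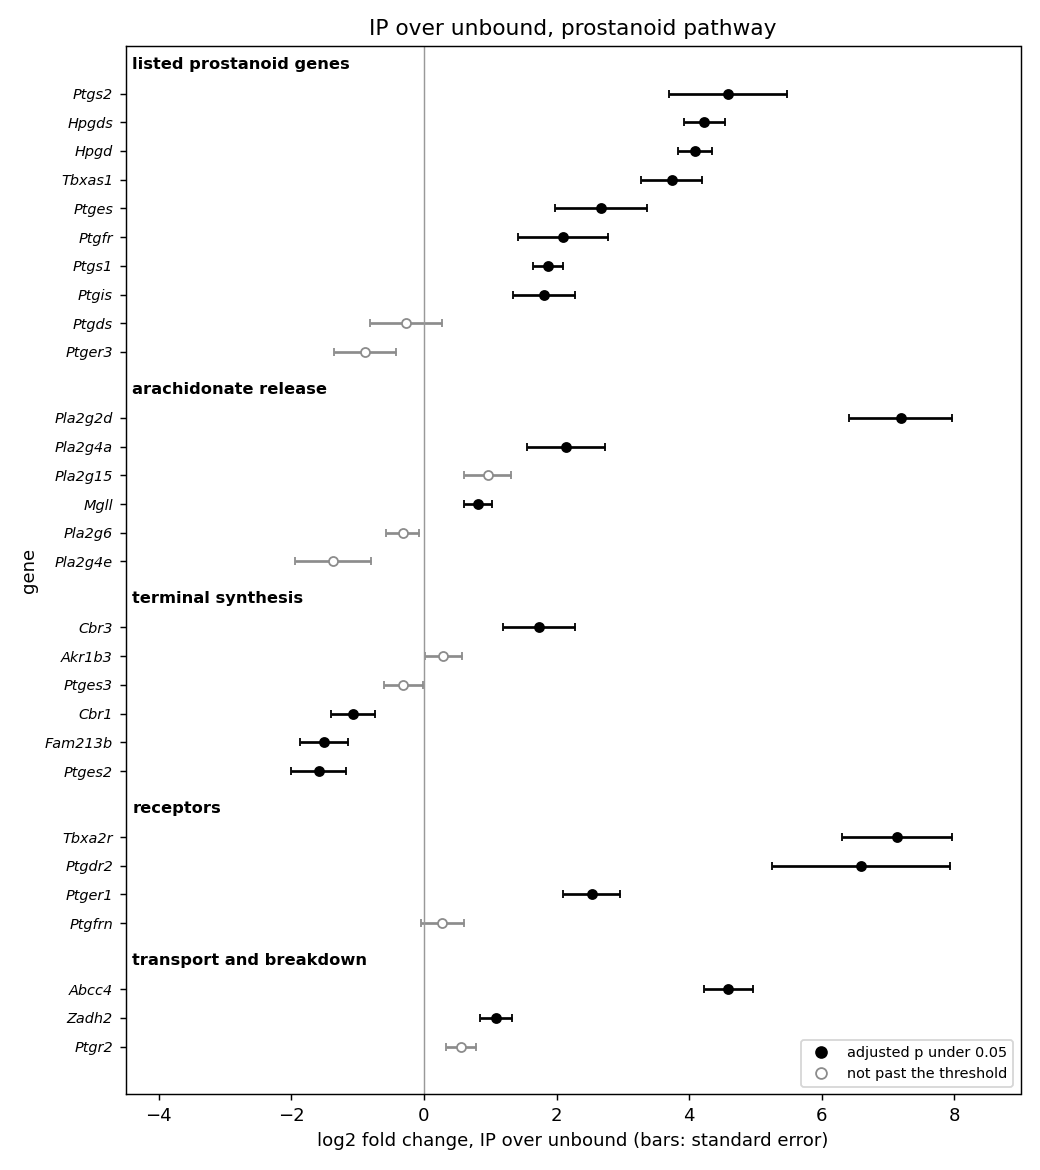
Log2 fold change of IP over unbound for the 10 prostanoid genes and for further pathway genes by step, with standard errors as bars. Filled points passed an adjusted p under 0.05 (8 of the 10 genes, all higher, and 9 higher and 3 lower of the other pathway genes).

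The genes whose log2 CPM ran most like that of 4 of the 10 genes over the 7 libraries were found among 11612 genes with a mean of at least 5 CPM. Libraries of 2 groups carry such correlations, which are given as a description. Closest to Ptgs1 were Arhgdib, Robo4 and Pltp (Pearson r = 0.999 for each), whose own log2 fold changes of 5.26, 6.07 and 6.05 were far above the 1.87 of Ptgs1. Closest to Ptgs2 were Olfr287 (r = 0.999), Tgfb1 (0.998) and Trp53 (0.997), all lowest in unbound 1, as Ptgs2 was. Tgfb1, for example, had 0.0376 CPM in unbound 1 and 0.859 to 1.42 CPM in unbound 2 to 4. Closest to Ptgds were Pigo (0.964), Sidt1 (0.959) and Ano3 (0.942), none of them past the threshold. Like Ptgds, Sidt1 was high in IP 4 (14 CPM, against 2.55 in IP 1 and 4.3 in IP 2) and low in unbound 1 (3.6 CPM, against 10.6 to 11.7 in unbound 2 to 4). Closest to Ptger3 were Unc5c (0.996), Slc8a1 (0.994) and Cplx2 (0.993), with log2 fold changes of -0.99, -1.35 and -1.17.

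**Figure D5:**
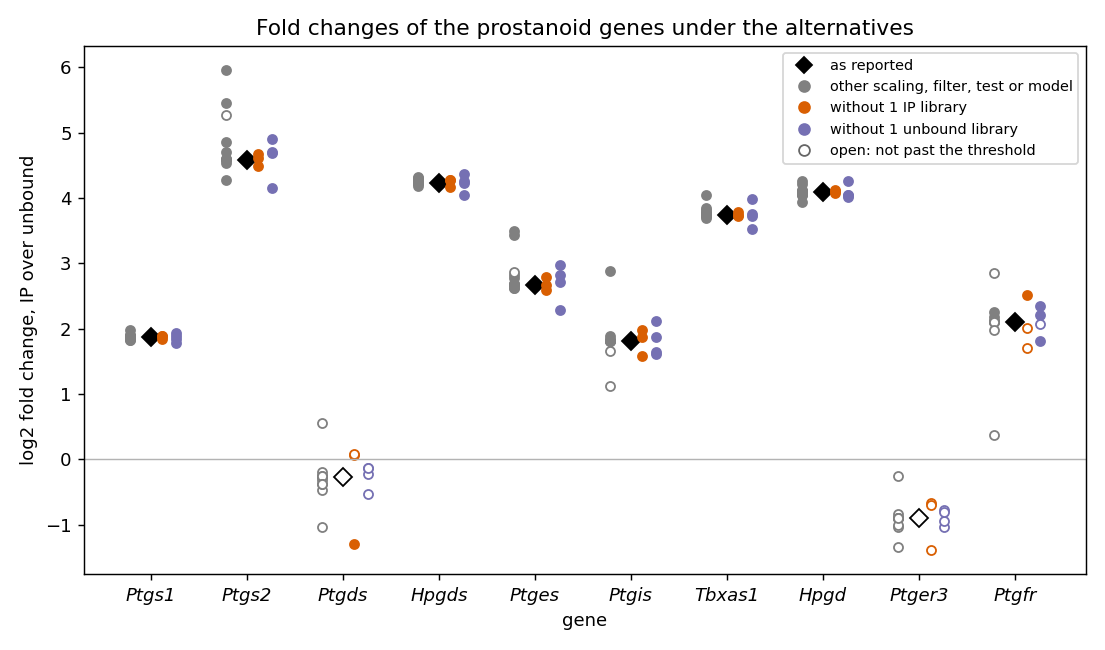
Log2 fold change of IP over unbound for each of the 10 genes as reported (diamonds) and under up to 18 alternatives (grey circles for other scalings, filters, tests or models, orange without 1 IP library, purple without 1 unbound library), with open symbols where the adjusted p was 0.05 or more. Ptgs1, Hpgds, Tbxas1 and Hpgd are past the threshold throughout, and Ptgds lies on both sides of 0, between -1.30 and 0.55.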

How the data were processed

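RNA was measured in 7 libraries, 3 IP and 4 unbound. The deposited values were raw read counts per gene symbol. Per the submitters' processing notes, STAR 2.0.0e, HTSeq and the build mm10 were used by the authors. Which annotation, strand setting and read filters were used is not given in the sources used here. Neither library sizes nor tests used the 6 rows that name no gene. Reads outside genes made up 16.6% ± 2.78 of all reads in IP and 12.2% ± 0.708 in unbound, and reads aligned to several places 36.5% ± 3.28 and 24.5% ± 7.28 (SD, n = 3 and 4).

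From these counts, R 4.3.3 and edgeR 4.0.16 gave CPM, log2 fold changes and the robust quasi-likelihood test on all 17654 genes kept by filterByExpr, with TMM scaling and Benjamini-Hochberg adjustment at 0.05. Log2 CPM for likeness used a prior count of 2. DESeq2 1.42.0, limma 3.58.1 (voom), other scalings and filters, index and replicate terms and left-out libraries were alternatives. Floors and counting intervals cover counting error only. No pair of libraries in a group agreed within sampling noise (chi-square per degree of freedom of at least 77.7). The steps were tested on simulated data. Coordinates and exon lengths came from GENCODE M21 (GRCm38, the build named mm10). The text names all 10 members, the pathway genes that passed or had a mean of at least 5 CPM, and the 3 most alike genes of 4 members. Ptger2, Ptger4, Ptgdr, Ptgir, Slco2a1 and the motifs were added after their values were seen. The members, lists and tests were chosen with earlier results of these data known.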

Additional observations from a re-analysis of the deposited data

Results flagged for a closer look

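The unbound values were screened for the 10 prostanoid genes and the pathway genes that passed or had a mean of at least 5 CPM. For 5 of these genes, 1 of the 4 unbound values stood apart by more of the whole range than Dixon's 95% limit. Chance gives that for about 1 group in 20 of those screened. Hpgd measured 8.66 CPM in unbound 2, against 5.48 to 5.86 CPM in the others. In the same library Ptges3 measured 261 CPM, Cbr1 113 CPM and Fam213b 125 CPM, each the highest unbound value. Ptgdr2 measured 0.019 CPM in unbound 3, a single count, and 0 in the other 3. A single count beside zeros meets the limit by construction, so the chance rate does not apply to Ptgdr2.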

How the results depend on the processing

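Within index ACAGTG, with 4 of the 7 libraries, 4 of the 10 prostanoid genes rose, 5 other pathway genes rose and 1 fell, and over all genes 2190 rose and 1650 fell, against 3622 and 3328 in all libraries. With 1 library left out, between 7 and 8 of the 10 genes rose and between 0 and 1 fell (Ptgds, -1.30 without IP 4), 7 to 11 other pathway genes rose and 2 to 4 fell, and over all genes 2796 to 4050 rose and 1751 to 3632 fell, the fewest without IP 2 (1751) and IP 1 (1899). The direction of Ptgds turned within index GTGAAA (0.55), without IP 1 (0.07) and without IP 2 (0.09), and that of Ptgfrn within index ACAGTG (-0.05). The ratio difference of Ptgds over Hpgds was -5.12 within index ACAGTG and -5.37 to -4.36 with 1 library left out. That of Ptger3 over Ptgfr was -4.36 and -4.01 to -2.44, and that of Ptgs1 over Ptgs2 was -5.37 and -4.44 to -2.36, or -2.88 with 5 counts added. The cause was not tested. Deviations from the group mean correlated between IP and unbound libraries of the same number by -0.03, 0.04 and 0.16 for numbers 1, 2 and 4. The unbound library most like IP 1, 2 and 4 in these deviations was number 2, 2 and 4. So few libraries cannot show whether those of the same number shared a preparation. With the replicate number as a block 6 of the 10 genes passed as higher, without Ptgis (1.66, adjusted p = 0.0565) and Ptgfr (2.11, adjusted p = 0.116), 8 other pathway genes rose and 3 fell, and 3154 and 2618 of all genes. A filter of 5 CPM in 3 libraries left 6 of the 10 as higher, since Ptgis, Ptger3 and Ptgfr were not tested, nor were Cbr3 and Ptgdr2. Ptgdr2 gave no value within index GTGAAA. Ptgs1, Hpgds, Tbxas1 and Hpgd kept their calls under 18 of 18 alternatives. Scaling moved the median of all genes from -0.10 to 0.01 at most. Few unbound counts limit the fold changes of Ptgs2, Ptgfr, Ptgdr2, Tbxa2r and Pla2g2d.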
